A study of Homo sapiens with 4 samples.

Results

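The SOX transcription factors were examined in IMR-32 cells, an established human neuroblastoma line with MYCN amplification, with and without knockdown of NeuroD1. The members were 10 genes chosen by symbol, SOX2, SOX3, SOX4, SOX5, SOX6, SOX8, SOX9, SOX10, SOX11 and SOX12, out of 60612 genes in the deposited count table. RNA sequencing (RNAseq) was compared between 2 libraries of control cells (shControl) and 2 libraries of cells carrying a hairpin against NeuroD1 (shNeuroD1). By the treatment label, all 4 libraries came from stably transduced IMR-32 cells given doxycycline at 1 µg/mL for 48 h to switch the hairpin on. The titles name the control libraries shControl. The study had a scrambled hairpin, and its figure captions for the RNAseq name the control group shNC, a negative control. The genotype label of the control libraries is WT, however, and the study's text calls the control cells parental. Whether the controls carried a hairpin is thus not certain. The labels do not say which NeuroD1 hairpin was sequenced, or whether replicate libraries came from different cultures, so p-values measure only the spread between these libraries, which may be technical.

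SOX proteins share a high-mobility-group (HMG) box that bends DNA from the minor groove, and most act with a partner factor bound beside them. Group B1 proteins such as SOX2 and SOX3 keep neural progenitors undifferentiated, group C proteins (SOX4, SOX11 and SOX12) act in neuroblasts and young neurons, and group E proteins (SOX8, SOX9 and SOX10) act in the neural crest and glia. Group D proteins such as SOX5 and SOX6 have no activation domain of their own and modulate other SOX factors. In the sympathetic lineage, from which neuroblastoma arises, SOX4 and SOX11 are expressed in neuroblasts, and SOX10 is kept in crest cells and Schwann cell precursors.

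The libraries held between 14665210 and 16482463 counts, and mitochondrial genes took 4.37% to 4.59% of counts in shControl and 5.39% to 5.51% in shNeuroD1. NEUROD1, the targeted gene, had 6174 and 6582 counts in the control libraries against 969 and 886 after knockdown, or 14.6% of the control level. Levels below are CPM, counts scaled to a common library size with TMM factors (counts-per-million units). The labelled cell type was checked against 8 noradrenergic identity genes, of which HAND2 (784.2 to 790.8 CPM in shControl) and GATA3 (143.4 to 147.9 CPM) were abundant. TH and DBH, enzymes of catecholamine synthesis, were near the lower limit in shControl, at 0.679 and 1.26 CPM for TH and 1.56 and 1.51 CPM for DBH.

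Of the 10 SOX genes, 9 had enough counts to be tested by edgeR's quasi-likelihood test, and SOX3 had 0 counts in every library. SOX4 and SOX5 were lower in shNeuroD1 and SOX8, SOX9, SOX11 and SOX12 were higher at a Benjamini-Hochberg adjusted p under 0.05 over all genes tested. These 2 lower and 4 higher genes compare with 28.2% of all 17537 genes tested that were lower and 26.8% that were higher by the same rule. With library size alone as the scaling, SOX5 was not called and the shares over all genes were 20.8% lower and 34.9% higher. With a log2 fold change beyond 1 in size asked for as well, 0 SOX genes were lower and 2, SOX8 and SOX9, were higher, where 5.14% and 8.79% of all genes tested were. The 0 lower genes by that rule in edgeR were also 0 at an unadjusted p under 0.05 and 0 in DESeq2. The median log2 fold change of the 9 genes was 0.12, beside 0.008 over all genes tested. SOX8 passed the filter on low counts only through the shNeuroD1 libraries and SOX2 only through the shControl libraries, so the presence of each among the tested genes already required a difference in that direction.

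**Figure D1:**
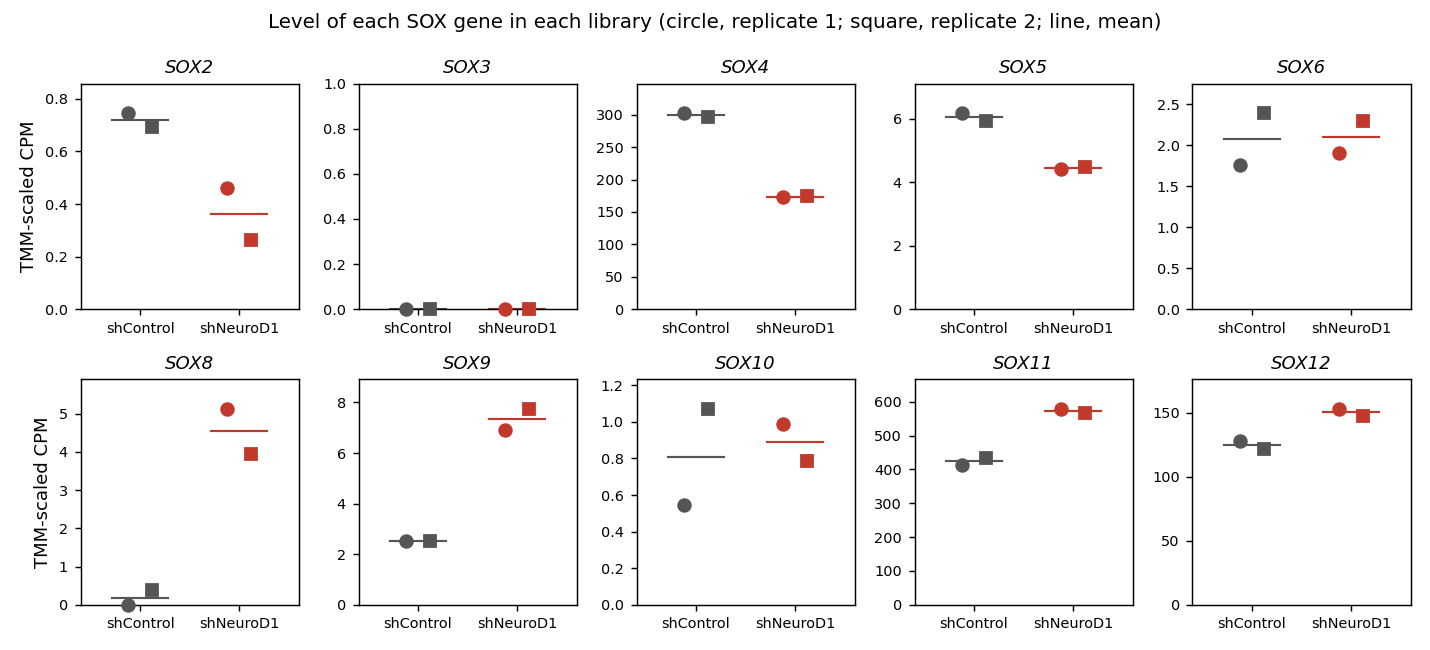
Level of each of the 10 SOX genes in TMM-scaled CPM (linear axis from 0, a separate scale per gene) in the 2 shControl libraries (grey) and the 2 shNeuroD1 libraries (red), with lines at the group means. SOX4 sat at 297.2 to 302.7 CPM in shControl and 172.9 to 174.3 CPM in shNeuroD1, while SOX11 sat at 414.1 to 434.8 and 565.4 to 578.9 CPM.

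Group C genes stood far above the other members. Expressed as RPKM, which is CPM divided by the exon length of the gene in kb, SOX12, the lowest of the 3 in shControl, was at 26.9, and each of the other members was under 1 RPKM there, where the values of SOX5 and SOX6 are lower limits because their exon length joins all isoforms. The levels of the 3 genes moved in opposite directions, SOX4 falling while SOX11 and SOX12 rose. Their levels were therefore taken gene by gene.

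SOX4 (ENSG00000124766, GRCh38 chromosome 6, 21592768 to 21598619, plus strand, a gene of 1 exon) was read 4461 and 4719 times in shControl, against 2631 and 2654 times in shNeuroD1. Its level was 302.7 and 297.2 CPM in shControl and 172.9 and 174.3 CPM in shNeuroD1. Both shNeuroD1 libraries lay well under both shControl libraries, and the groups did not overlap. SOX4 stood at 57.9% of the control level, a log2 fold change of -0.79 (edgeR adjusted p 2.26e-16, SE 0.0435). It ranged from -0.81 to -0.79 when 1 library was left out, and the other settings gave -0.80 to -0.68. An antisense gene that shares 168 bases of the SOX4 exon, AL512380.2, had 0 counts in every library.

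SOX11 (ENSG00000176887, chromosome 2, 5692667 to 5701385, plus strand, 1 exon), the group C factor best known from fetal neurons, had 6104 and 6904 counts in the control libraries against 8806 and 8609 after knockdown. This corresponded to 414.1 and 434.8 CPM against 578.9 and 565.4 CPM. The groups did not overlap, and the shNeuroD1 level was 1.35-fold that of shControl, a log2 fold change of 0.43 (edgeR adjusted p 1.11e-10, SE 0.0408). SOX12 (ENSG00000177732, chromosome 20, 325595 to 330224, plus strand, 1 exon), the third group C factor, was at 127.6 and 121.7 CPM in shControl and 152.9 and 147.3 CPM in shNeuroD1. It was 1.2-fold higher without overlap between the groups, a log2 fold change of 0.27 (edgeR adjusted p 2.05e-05, SE 0.0486). AC108025.2, which shares 74 bases with the SOX11 exon on the same strand, had 11 to 27 counts. Both rises were small, and the upper quartile of the log2 fold change over all genes tested was 0.40.

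Within a library the balance of SOX4 and SOX11 does not depend on how libraries are scaled. The ratio of SOX4 to SOX11 counts was 0.731 and 0.684 in shControl, against 0.299 and 0.308 in shNeuroD1. With 2 libraries against 2, an exact permutation test cannot give a two-sided p below 0.333, so the ratio is given without a test. On the per-length scale of RPKM SOX4, at 51.3 ± 0.662 RPKM (SD, n = 2), was the highest SOX gene in shControl, followed by SOX11 at 48.7 ± 1.67 RPKM and SOX12 at 26.9 ± 0.899 RPKM. In shNeuroD1 the order was SOX11 at 65.6 ± 1.09 RPKM, SOX12 at 32.4 ± 0.855 RPKM and SOX4 at 29.7 ± 0.162 RPKM (SD, n = 2 each). The libraries of these neighbours in the order did not overlap in either group. The order depends on the exon lengths used, 5852 bases for SOX4 and 4630 bases for SOX12. In CPM, SOX4 (172.9 and 174.3) stood above SOX12 (152.9 and 147.3) in shNeuroD1. The RefSeq start of SOX4, given below, would make its exon shorter and its RPKM higher. With that start and the same gene end, SOX4 would stand above SOX12 in shNeuroD1 per length as well. The order of SOX4 and SOX12 there is therefore not settled.

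The sum of the 3 genes per length was 127 and 127 RPKM in shControl and 129 and 126 RPKM in shNeuroD1, a difference smaller than the spread within shNeuroD1. SOX4 made up 40.8% and 40.0% of that sum in shControl and 22.9% and 23.6% in shNeuroD1. The share of SOX11 went from 37.5% and 39.3% to 51.5% and 51.3%. The near-equal sum depends on dividing by length, since the sum in CPM went from 844.4 and 853.7 to 904.7 and 887.0, without overlap. The sum per length and these shares also depend on the same exon lengths. With the RefSeq start of SOX4 and the same gene end, the sum would be lower in both shNeuroD1 libraries than in both shControl libraries.

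**Figure D2:**
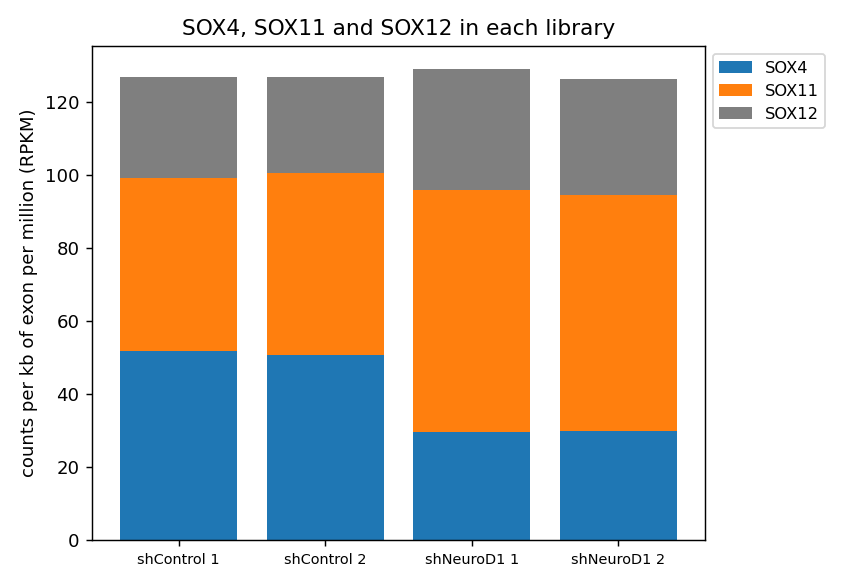
Stacked bars of SOX4 (blue), SOX11 (orange) and SOX12 (grey) in RPKM (axis from 0) for each of the 4 libraries. With the GENCODE 29 exon lengths, on which it depends, the total lay between 126 and 129 RPKM. The SOX4 part was about 51 RPKM in shControl and about 30 RPKM in shNeuroD1.

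NeuroD1 is a basic helix-loop-helix factor, and such factors bind E-boxes, 6-base sites with the letters CANNTG. The promoter windows of SOX4 and SOX12, a group C gene that fell and a group C gene that rose, are shown because they differ in this motif. Each runs from 250 bases before to 50 bases after a RefSeq transcript start (GRCh38.p14, plus strand, 5′ to 3′), at chr6:21593501-21593800 for SOX4 and chr20:325302-325601 for SOX12, with E-boxes in capitals.
SOX4: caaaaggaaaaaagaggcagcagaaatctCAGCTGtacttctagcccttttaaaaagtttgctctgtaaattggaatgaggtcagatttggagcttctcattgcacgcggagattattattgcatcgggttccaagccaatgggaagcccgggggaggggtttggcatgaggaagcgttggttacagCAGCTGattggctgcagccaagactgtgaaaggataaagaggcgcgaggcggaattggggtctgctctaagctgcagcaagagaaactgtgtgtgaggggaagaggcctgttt
SOX12: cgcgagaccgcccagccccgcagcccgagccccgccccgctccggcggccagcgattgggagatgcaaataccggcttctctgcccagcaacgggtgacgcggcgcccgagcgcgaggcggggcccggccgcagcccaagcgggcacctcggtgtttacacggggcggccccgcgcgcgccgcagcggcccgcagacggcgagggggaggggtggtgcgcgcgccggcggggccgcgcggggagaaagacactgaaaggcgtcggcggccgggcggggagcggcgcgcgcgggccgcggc
The SOX4 window held 2 E-boxes, both with the letters CAGCTG, whose first bases lay at -221 and -63 from the start, and the SOX12 window held none. The window of SOX5, the other member called lower, also held none, while SOX6, which was not called, had windows with E-boxes. Whether the motif goes with the direction of change was not tested. The RefSeq start of SOX4 used here lies downstream of the start that GENCODE 29 gives the gene, so by that annotation the window is within the SOX4 exon. Windows were found for 6 of the 10 members (SOX2, SOX3, SOX4, SOX5, SOX6 and SOX12), 10 windows in all because SOX6 has several starts. CANNTG, which reads the same on both strands, was in 7 of the 10, beside 68.7% of 35116 windows of the same length over all genes. CAGCTG was in 1 of the 10, that of SOX4, beside 17.9% of all windows. CAGATG, read on either strand, was in 2 of the 10, both of SOX6, beside 14.7%. CAGCTG and CAGATG are both forms of CANNTG. These matches describe letters only, and binding was not measured in the data used here. The study mapped NeuroD1 binding in IMR-32 cells by chromatin immunoprecipitation sequencing, which was not used here.

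Group E genes were rare in shControl. SOX8 and SOX9 were called higher in shNeuroD1 and SOX10 was not, where 26.8% of all genes tested were higher. Summed over SOX8, SOX9 and SOX10, shControl held 45 and 63 counts against 198 and 190 in shNeuroD1, or 3.05 and 3.97 CPM against 13.0 and 12.5 CPM. In bulk RNA, more cells that express a gene and more RNA per cell cannot be told apart.

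SOX8 (ENSG00000005513, chromosome 16, 981808 to 986979, plus strand), a group E factor of the neural crest and of glia, went from 0 and 6 counts in shControl to 78 and 60 in shNeuroD1. It was thus close to absent in both shControl libraries and present in both shNeuroD1 libraries, at 5.13 and 3.94 CPM. The summed counts gave a ratio of 23.1 with a 95% interval of 10.4 to 64.1 (exact binomial on the counts, which covers counting error only). SOX8 passed the filter only through the shNeuroD1 libraries, so its p and its rank among genes tested are no independent support. The fitted log2 fold change was 4.48 (edgeR adjusted p 8.71e-10, SE 0.466), higher than 99.8% of genes tested. Its size rests on the 6 counts of shControl replicate 2, since it was 9.09 without that library, a value fitted against 0 counts that is no bound, and 3.55 without shControl replicate 1. The direction and the call held in all settings run.

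SOX9 (ENSG00000125398, chromosome 17, 72121020 to 72126420, plus strand), a factor of the neural crest, of glia and of cartilage, went from 37 and 40 counts in shControl to 105 and 118 in shNeuroD1. Its level was 2.51 and 2.52 CPM in shControl and 6.90 and 7.75 CPM in shNeuroD1, without overlap. The shNeuroD1 level was 2.91-fold that of shControl, a log2 fold change of 1.54 (edgeR adjusted p 1.26e-07, SE 0.205), higher than 95.9% of genes tested. Leaving out 1 library gave 1.45 to 1.62. On the per-length scale SOX9 was at 0.639 ± 0.00156 RPKM in shControl and 1.86 ± 0.152 RPKM in shNeuroD1 (SD, n = 2 each).

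SOX10 (ENSG00000100146, chromosome 22, 37970686 to 37987422, minus strand), the group E factor that marks Schwann cell precursors, held 8 and 17 counts in the control libraries against 15 and 12 after knockdown. Its groups overlapped, from 0.543 to 1.07 CPM in shControl and from 0.788 to 0.986 CPM in shNeuroD1. The log2 fold change of 0.12 (edgeR adjusted p 0.846, SE 0.467) was smaller than its error, and at these counts a ratio between 0.607 and 1.95 lay within counting error alone. SOX10 shares 89 bases of exon with POLR2F on the opposite strand, which had 827 to 1087 counts, and whether the counting separated the strands is not given in the sources used here.

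The transcript tables deposited beside the counts give FPKM, fragments scaled by transcript length and library depth, for transcript starts, and list a start only where its FPKM is above 0. For SOX9 they list the start at chromosome 17, 72121020 to 72121822, at 0.276 FPKM in shControl replicate 2, 1.36 in shNeuroD1 replicate 1 and 1.33 in shNeuroD1 replicate 2, and not in shControl replicate 1. The SOX9 transcript end (72123543 to 72126416) was at 0.561 and 0.276 FPKM in the shControl libraries and at 1.36 and 1.33 FPKM in the shNeuroD1 libraries, so a SOX9 transcript was assembled in all 4. For SOX8 they list 2 starts on chromosome 16. The upstream start (981770 to 982344) was at 0.513 and 0.488 FPKM in the shNeuroD1 libraries and the downstream start (982086 to 983960) at 0.380 and 0.407 FPKM. In shControl replicate 2 the same starts were at 0.0663 and 0.0237 FPKM, and shControl replicate 1 listed neither. Both SOX8 starts were thus listed in both shNeuroD1 libraries, at similar levels. An exon of SOX8 that ends at 983960 was assembled mainly from 983538 in shNeuroD1 replicate 1 (0.489 FPKM, beside 0.0243 FPKM from 983728). In shNeuroD1 replicate 2 this exon was listed only from 983728 (0.488 FPKM), so the main exon boundary differed within the group. SOX2, SOX3, SOX4, SOX6, SOX10 and SOX12 had no row under their gene ID in these tables, and SOX11 had none on its own strand, so the FPKM values are no check on the group C counts.

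Group D and group B1 genes were low. SOX5 (ENSG00000134532, chromosome 12, 23529500 to 24562544, minus strand), a partner of SOX9 in cartilage and of SOX10 in glia, held 91 and 94 counts in the control libraries against 67 and 68 after knockdown. Its level was 6.17 and 5.92 CPM against 4.40 and 4.47 CPM, without overlap. The log2 fold change of -0.45 (edgeR adjusted p 0.0442, SE 0.188) lay just inside the threshold. It was -0.46 in DESeq2, where the adjusted p of 0.305 did not pass, and no fit with 1 library left out passed (adjusted p 0.0871 to 0.122). The transcript tables list a SOX5 exon that can be skipped (23546316 to 23546424) as included at 0.583 FPKM in shControl replicate 2 and at 0.472 and 0.546 FPKM in the shNeuroD1 libraries, and no SOX5 event in shControl replicate 1.

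SOX6 (ENSG00000110693, chromosome 11, 15966449 to 16739591, minus strand), the close relative of SOX5, held 26 and 38 counts in the control libraries against 29 and 35 after knockdown. The groups overlapped, and the log2 fold change was 0.01 (edgeR adjusted p 0.982, SE 0.303). Leaving out 1 library moved it between -0.20 and 0.24. Per length SOX6 was at 0.106 ± 0.0227 RPKM in shControl and 0.107 ± 0.0141 RPKM in shNeuroD1 (SD, n = 2 each). SOX6 shares 219 exon bases with C11orf58 on the opposite strand, which had 3041 to 3910 counts.

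SOX2 (ENSG00000181449, chromosome 3, 181711924 to 181714436, plus strand), the progenitor factor of group B1, had 11 counts in each shControl library and 7 and 4 in shNeuroD1. Its level was 0.746 and 0.693 CPM in shControl and 0.460 and 0.263 CPM in shNeuroD1. Although these values did not overlap, the log2 fold change of -0.98 (edgeR adjusted p 0.147, SE 0.566) did not pass, and the ratio of summed counts, 0.503, had a counting interval of 0.220 to 1.08. SOX3 (ENSG00000134595, chromosome X), the other group B1 member, had 0 counts in all 4 libraries, which allows a level of up to 0.189 to 0.204 CPM per library (3 counts on the same TMM scale). SOX2 and SOX3 are thus reported as at or near the limit of these libraries. SOX2 overlapped SOX10 in the order of per-length levels in shControl and SOX6 in shNeuroD1, and the low genes should not be ranked against each other there.

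**Figure D3:**
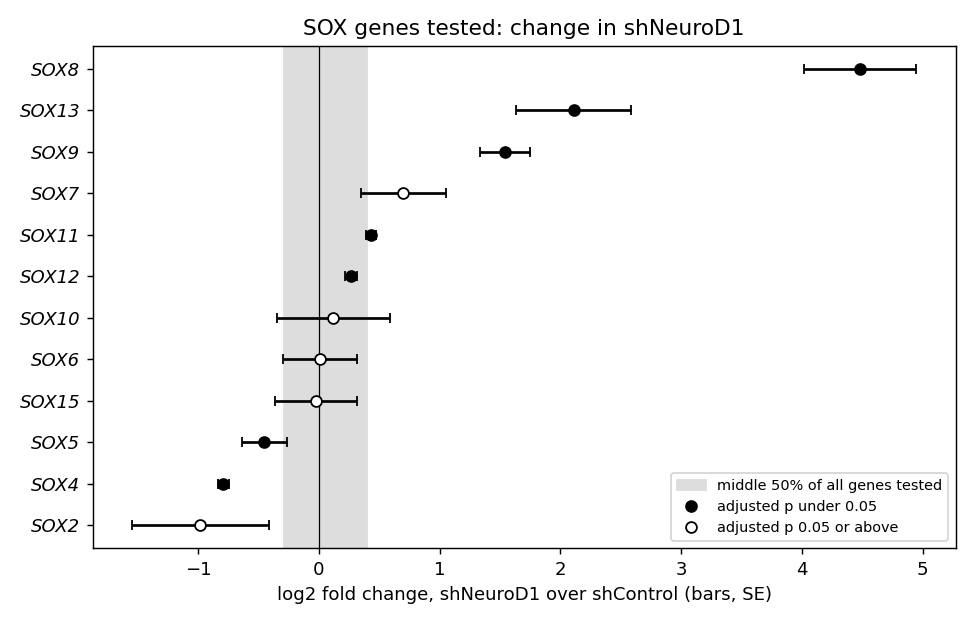
Log2 fold change of shNeuroD1 over shControl with its SE for the 12 SOX genes tested, ordered by value, with the middle 50% of all genes tested in grey (-0.29 to 0.40). SOX8, SOX13 and SOX9 lie far above the grey band, SOX4 lies below it with a short error bar, and SOX2 lies below it with a long one.

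The rest of the family was examined next. Of 9 other SOX genes, SOX1, SOX14, SOX17, SOX21 and SOX30 had 0 counts in every library and 3 were tested. SOX13, the remaining group D gene, went from 5 and 6 counts to 22 and 26, and its log2 fold change was 2.11 (edgeR adjusted p 3.52e-04, SE 0.476). It passed the filter only through the shNeuroD1 libraries. The log2 fold change was 0.70 for SOX7, a group F gene of endothelium (edgeR adjusted p 0.0892), and -0.02 for SOX15 (edgeR adjusted p 0.970), and neither passed. SOX7 shares 39.4% of its exon bases with PINX1 on the same strand, whose ID had 0 counts, so its own counts are uncertain. SOX18 had 11 counts over the 4 libraries and was not tested.

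Noncoding genes beside SOX genes were compared because several lie in the same loci. CASC15, a long noncoding gene that starts 66.2 kb beyond the end of SOX4 on the same strand and lies in a neuroblastoma risk region, was at 81.6 and 78.5 CPM in shControl and 107.8 and 117.3 CPM in shNeuroD1. It was higher by a log2 fold change of 0.49 (edgeR adjusted p 3.86e-09, SE 0.0550), while SOX4 was lower. NBAT1, which is antisense to CASC15 and shares 227 exon bases with it, had a log2 fold change of -0.21 (edgeR adjusted p 0.570). Of the 7 noncoding genes listed, 2 were tested and CASC15 was the gene called, where 28.2% of all genes tested were lower and 26.8% higher. SOX2-OT, in whose span SOX2 lies, had at most 1 count per library, and SOX9-AS1 had 2 to 9.

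Of 11 listed partner factors of SOX proteins, 5 were tested. Of these 5, 3 were lower and 2 higher, where 28.2% and 26.8% of all genes tested were. TFAP2A, a neural crest factor, went from 158 and 190 counts to 8 and 14. Its level of 10.72 and 11.97 CPM in shControl fell to 0.526 and 0.919 CPM, or 6.37% of control (log2 fold change -3.96, edgeR adjusted p 6.53e-15, SE 0.25). CHD7, a chromatin remodeller that acts with SOX2 and SOX10, fell from 169.2 and 182.6 CPM to 84.9 and 86.6 CPM, a log2 fold change of -1.04 (edgeR adjusted p 1.26e-17, SE 0.0512). POU3F2, the POU factor that acts with SOX2 and SOX11 in neural cells, was at 1.70 and 0.756 CPM in shControl and 2.56 and 2.10 CPM in shNeuroD1 (log2 fold change 0.94, edgeR adjusted p 0.0272). Its call was lost in DESeq2 (adjusted p 0.254) and without shNeuroD1 replicate 1 (0.79) or shControl replicate 2 (0.45). POU3F1 (1.54) and POU2F1 (-0.30), named after their values were seen, were the other factors called, as log2 fold changes. POU3F1 passed the filter only through shNeuroD1 and was not called in DESeq2 (adjusted p 0.141) or without shControl replicate 1 (1.80), shControl replicate 2 (1.29) or shNeuroD1 replicate 1 (1.43). PAX3 and PAX6 had at most 1 and 5 counts in a library, and POU3F3 and POU3F4 had 0.

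Of 8 genes tied to SOX4 and SOX11 in neurons or neuroblastoma, 3 were lower, 1 was higher and 4 did not pass, with a median log2 fold change of -0.06. Over all genes tested, 28.2% were lower and 26.8% higher. MYB, a factor of proliferating progenitors, fell from 15.1 and 14.8 CPM to 6.90 and 6.30 CPM (log2 fold change -1.18, edgeR adjusted p 1.17e-08, SE 0.139). TEAD2, a factor of Hippo signalling, fell from 51.0 and 50.1 CPM to 31.4 and 30.9 CPM (-0.70, edgeR adjusted p 6.46e-10). DCX, a microtubule protein of migrating neuroblasts, fell from 239.2 and 263.5 CPM to 185.0 and 186.9 CPM (-0.44, edgeR adjusted p 2.01e-09). MAP2, a microtubule protein of neurons that was named after its value was seen, rose by a log2 fold change of 0.40 (edgeR adjusted p 1.34e-08). TUBB3, the neuronal tubulin, was at 16.1 and 16.8 CPM in shControl and 17.0 and 16.7 CPM in shNeuroD1. In limma on log2(FPKM + 1) DCX (-0.40), MAP2 (0.67) and MYB (-0.42) kept their sign and did not pass, while TEAD2 passed (-1.01, adjusted p 0.0388). Few genes passed in that fit, 2.76% lower and 2.44% higher over all genes it tested.

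Of 11 listed Schwann cell and neural crest genes known to follow SOX10, 7 were tested. Of these 7, 3 were lower and 3 higher, where 28.2% and 26.8% of all genes tested were. FABP7, a fatty acid binding protein of radial glia and Schwann cell precursors, had 1 count in each shControl library and 27 and 38 in shNeuroD1, a ratio of 32.7 with a counting interval of 8.69 to 276 (log2 fold change 4.87, edgeR adjusted p 8.69e-08, SE 0.636). MITF, the melanocyte factor, fell from 118 and 115 counts to 35 and 40 (-1.62, edgeR adjusted p 4.38e-08, SE 0.205). Also called, and named after their values were seen, were PMP22 (-1.56), EDNRB (-1.14) and S100B (1.10), as log2 fold changes. S100B lost its call without shControl replicate 2 (0.23) or shNeuroD1 replicate 2 (0.93), and EDNRB without shControl replicate 1 (-0.74) or shNeuroD1 replicate 2 (-0.96). In DESeq2 neither EDNRB (adjusted p 0.209) nor S100B (0.326) passed. FOXD3 and CDH19, defining genes of crest and Schwann cell precursors, had 0 counts in every library, and ERBB3 had 4 to 8. The summed level of the list was 46.8 to 51.2 CPM in shControl and 25.7 to 25.9 CPM in shNeuroD1. PMP22 was the largest part of that sum in every library. It fell from 35.6 and 33.8 CPM to 12.9 and 10.7 CPM, so the sum mostly follows this gene rather than the list. FABP7 passed the filter only through the shNeuroD1 libraries, where SOX8 and SOX9 were also higher, and the part of any other cell type in these values was not tested.

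Cartilage matrix genes known to follow SOX9 were compared with it. Of 8 listed, 3 were tested and 0 were called by edgeR, with an unadjusted p under 0.05 for 0 and calls for 0 in DESeq2. Over all genes tested by edgeR, 28.2% were lower and 26.8% higher, and 3 genes are too few to compare with these shares. COL9A2 (0.00), COL11A2 (0.01) and COL9A3 (0.18) had these log2 fold changes. COL2A1, the main cartilage collagen, had 1 to 8 counts per library. COL9A1, which did not pass the filter, went from 4 and 5 counts to 7 and 22, and is named after its values were seen. Without shNeuroD1 replicate 1 it was tested and called higher (log2 fold change 2.26, edgeR adjusted p 0.0062), and it was not called in DESeq2 (1.68, adjusted p 0.220).

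Markers of cell state were compared beside the SOX genes. Of the 8 noradrenergic identity genes, 4 were lower and 2 were higher, where 28.2% and 26.8% of all genes tested were. DBH had a log2 fold change of -1.01 (edgeR adjusted p 0.0342), which was called neither by DESeq2 (adjusted p 0.280) nor with any 1 library left out (-1.08 to -0.95). TH rose from 10 and 20 counts to 88 and 79 (2.48, edgeR adjusted p 8.34e-09, SE 0.288). ISL1 (-0.63), HAND2 (-0.13) and GATA3 (0.57) were also called and are named after their values were seen, and HAND2 was not called under library size alone (-0.02) or without shNeuroD1 replicate 2 (-0.12). Of 8 mesenchymal-type markers, 2 were lower, 2 were higher and 4 were not tested, beside the same shares over all genes. CD44, a surface receptor, rose from 8.82 and 9.19 CPM to 17.3 and 20.6 CPM (1.07, edgeR adjusted p 1.22e-08, SE 0.127). SNAI2 had -0.53 and PRRX2 0.40 (edgeR adjusted p 5.57e-04 and 5.50e-04), and FN1, named after its value was seen, had -0.30 and was not called by DESeq2 (adjusted p 0.0671) or without shControl replicate 2 (-0.16). PRRX2 also lost its call without shControl replicate 2 (0.29), and SNAI2 without shControl replicate 1 (-0.49). The defining factor PRRX1 and TWIST2 had 0 counts in every library. The summed level of this list was 82.0 to 87.4 CPM in shControl and 87.1 to 90.0 CPM in shNeuroD1, which overlap.

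**Figure D4:**
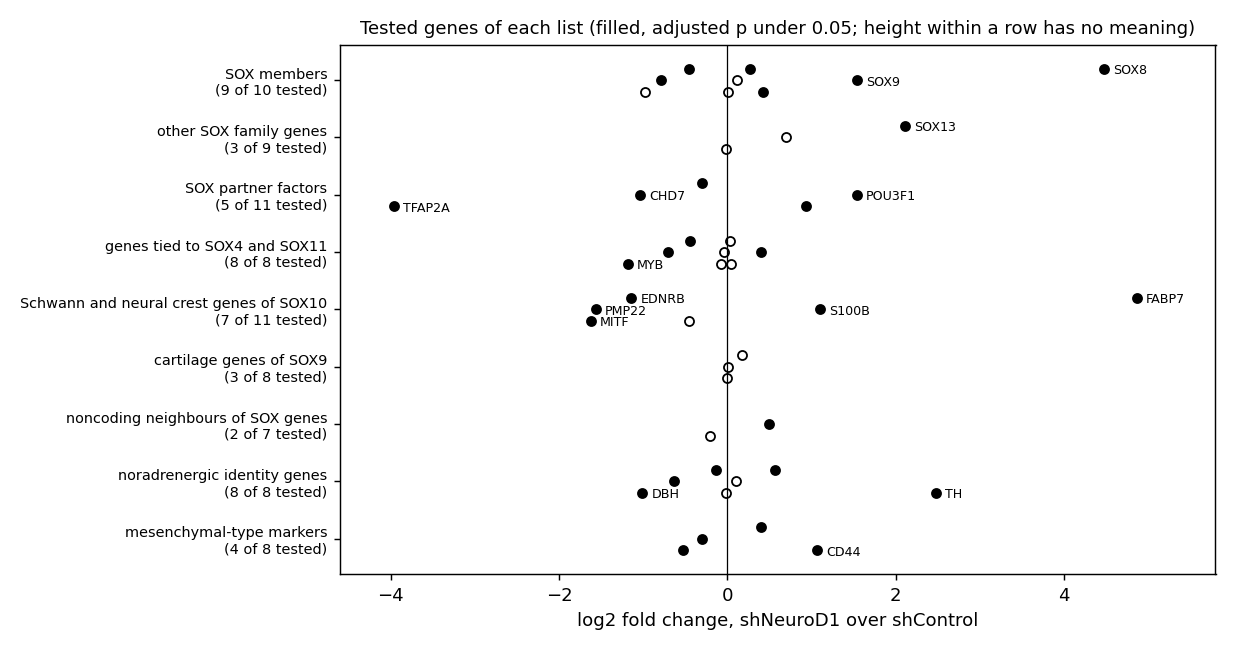
Log2 fold change of shNeuroD1 over shControl for the tested genes of the 9 lists that are reported here, 1 point per gene, filled where the edgeR adjusted p was under 0.05, with names where the change was beyond 1 in size. The list tied to SOX10 holds genes on both sides, from MITF at -1.62 to FABP7 at 4.87, and the 3 tested cartilage genes sit between 0.00 and 0.18.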

How the data were processed

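RNAseq of 4 IMR-32 libraries was analysed from the deposited files, with groups and replicate numbers taken from the sample titles. A table of raw counts per gene (60612 Ensembl IDs) was deposited, which the study's methods credit to HTSeq 0.6.1 on paired-end reads. Their processing notes also name cutadapt 1.9.1, HISAT2 2.0.1, DESeq2 and hg38. The strand setting was not given in the sources used here. The authors also deposited FPKM values of transcript starts, ends and splicing events for each library. Their assembler is not given in the sources used here. A symbol could be matched to 60401 IDs, and 0 rows named no gene. Positions and exon lengths are from GENCODE 29 on GRCh38, and promoter windows from RefSeq.

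Counts were filtered by filterByExpr in edgeR 4.0.16 (R 4.3.3, minimum count 10, here 0.665 CPM in 2 libraries), scaled by TMM and tested across all genes by glmQLFTest (two-sided) with Benjamini-Hochberg adjustment. The threshold was an adjusted p of 0.05. The SE is the size of the log2 fold change divided by the square root of F. The script was tested on simulated data. Intervals and the floor of 3 counts cover counting error only. The alternatives were other scalings, filters, DESeq2 1.42.0 (Wald test, unshrunken), a replicate block, leaving out each library (the lone library is assumed to vary like the other group), and limma 3.58.1 on log2 FPKM summed over a gene's starts, with pseudocounts of 1 and 0.1, where the mean reached 1 FPKM. The members and lists were chosen with earlier results of these data known. All members are named, and from each other list up to 3 called genes with the largest change and a mean of at least 1 CPM, with genes at or near 0. Other names are given as chosen after their values were seen. Some listed genes entered the counts and summed levels of their lists and are not reported here by name.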

Additional observations from a re-analysis of the deposited data

Results flagged for a closer look

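In the transcript tables, which the comparison of counts did not use, shNeuroD1 replicate 2 listed a minus-strand transcript start assigned to the SOX11 gene (chromosome 2, 5694197 to 5694337) at 0.981 FPKM, on the strand opposite to SOX11. It stood out because neither shControl library listed it, and shNeuroD1 replicate 1 did not list it. The start lies within the single SOX11 exon, and its share of the SOX11 counts was not tested.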

How the results depend on the processing

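Among SOX genes, 4 were called higher, the same genes, in each alternative that tested them, except that 2 passed when a log2 fold change beyond 1 was also asked for. The 2 called lower became 1 under library size alone, with no filter on low counts and in DESeq2, 0 with a log2 fold change beyond 1 also asked for, and 1 to 1 when 1 library was left out, because SOX5 no longer passed. The cause was not tested. Over all genes, 18.5% were lower and 14.3% higher in DESeq2, and 13.4% and 11.6% with no filter. Genes called higher stayed at 4 to 4 without any 1 library. Library size alone put the median of all genes at 0.12, and SOX7 passed there (0.81, adjusted p 0.0483). Values near 0 changed sign. SOX6 was -0.0041 with no filter and -0.00019 in DESeq2, and between -0.20 and 0.24 with 1 library left out, reaching -0.20 without shControl replicate 1 and -0.13 without shNeuroD1 replicate 2. SOX10 lay between -0.28 and 0.69, at -0.28 without shControl replicate 1 and -0.05 without shNeuroD1 replicate 1. SOX15 was 0.09 under library size alone and between -0.23 and 0.17 with 1 library left out, at 0.03 without shControl replicate 2 and 0.17 without shNeuroD1 replicate 2. No SOX gene reached a mean of 1 FPKM, so the FPKM fits gave no value for them. In limma on log2(FPKM + 1), POU2F1, CASC15, ISL1, CD44, GATA3, PRRX2, FN1, DCX, MAP2 and MYB kept their sign and did not pass, while CHD7, TEAD2 and PMP22 passed, PMP22 not with a pseudocount of 0.1. Of all genes in the fit with a pseudocount of 1, 2.76% were lower and 2.44% higher, so most calls were lost there. Over all named genes, 215 values kept direction and side of the threshold outside the leave-one-out fits, 39 were weaker, 1 was stronger and 3 reversed. The deviations of libraries that share a number had a correlation of 0.0158 across genes, so no pairing was assumed, and the replicate block gave 2 lower and 4 higher SOX genes. Depth limits SOX2, SOX8 and SOX10, with 0 to 17 counts per library in at least 1 group.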
